A study of Mus musculus with 8 samples.

Results

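The immediate early genes are a set of 10 genes, Fos, Fosb, Jun, Junb, Egr1, Atf3, Nr4a1, Ier2, Ier3 and Myc, chosen by name from the 22180 genes measured on 8 expression arrays. Each of the 10 was read by 1 probe set, so the set makes up 10 of 34351 probe sets. The arrays carried RNA from the hearts of 4 female and 4 male mice, all heterozygous for Pcyt2 (Pcyt2+/-), a gene of phosphatidylethanolamine synthesis, and all 8 months old. Hearts were taken 3 to 4 hours after lights on and snap frozen. The labels call the tissue myocardium and the samples biological replicates. Females and males share this genotype, which leaves sex as the only comparison, and no wild-type heart was analysed here.

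Immediate early genes are transcribed within minutes of a stimulus from factors that are already present in the cell, and most of their messages decay quickly. Growth factor and stretch signals reach them through kinases of the MAPK family and serum response factor, which binds the CArG box of the serum response element, while cyclic AMP and calcium signals reach them through CREB at the cyclic AMP response element (CRE). In the heart they are known to respond to pressure load, adrenergic drive and ischaemia, and in any tissue they respond to handling and to the time between death and freezing.

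Each value is on a log scale, whose base was taken as 2, and is given relative to the median of its probe set over all 8 arrays. A value of 0 is therefore that gene's typical heart, and no absolute level can be given, neither of these genes nor of the markers of the labelled tissue. Differences are females minus males, and group values are mean ± SD over 4 arrays. The values come from whole pieces of heart, in which fewer cells of a type and less RNA per cell cannot be told apart. Array medians lay between -0.0021 and 0.0023, and Xist and 3 Y-linked genes fitted the labelled sex on all 8. Fast skeletal muscle and liver genes stood high on some arrays. Myh4, a fast skeletal myosin gene, was at 1.03 in female 1, 2.23 in male 2 and 1.57 in male 1. Alb, the albumin gene, was at 2.69 in female 2 and 1.76 in female 1. Atrial genes stood low on some. The mean of 6 atrial genes was -1.23 in female 1, -1.02 in male 3 and -0.74 in male 1. In the other hearts it lay between -0.18 and 0.52.

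The regulatory sequence in front of 7 of the 10 genes was at hand in the RefSeq promoter table (GRCm38.p6), and Ier2, Myc and Egr1 had no entry. In the 250 bases before the transcript start that the table gives, searched on both strands, the CRE core TGACG was present in 5 of 7 promoters, against 17.8% of all 32851 promoters in the table. The full CRE TGACGTCA, which holds the core on both strands, was in 0 of 7 and in 1.55% of all. The CArG box was in 0 of 7 and in 1.47% of all, the AP-1 site TGACTCA in 0 of 7 and 4.46%, and the EGR site GCGTGGGCG in 0 of 7 and 0.536%. The CRE core was not particular to the 10 genes. Of 59 promoters of a wider list of early response genes, described below, 31 held it. In those 59 the full CRE was in 6, the CArG box in 6, the AP-1 site in 4 and the EGR site in 1. These counts say only which letters lie in this short window. The Jun promoter is known for a pair of variant AP-1 sites through which Jun acts on its own gene, TGACATCA and TTACCTCA, and both were in the Jun window, against 2.93% and 0.728% of all promoters. The promoters of Fos, Junb, Atf3 and Nr4a1, which hold a CRE core, and that of Jun are printed from 5′ to 3′ to show these sites, with the CRE core in capitals (for Jun, the variant AP-1 sites). They were chosen after the motifs had been counted. The windows of Fos, Jun, Junb and Atf3 lie just outside the annotated gene, and that of Nr4a1 lies inside the annotated span of its gene. Fosb also holds a CRE core, and its window, which overlaps its gene in part, is not shown.
Fos (chr12:85473640-85473889, plus strand): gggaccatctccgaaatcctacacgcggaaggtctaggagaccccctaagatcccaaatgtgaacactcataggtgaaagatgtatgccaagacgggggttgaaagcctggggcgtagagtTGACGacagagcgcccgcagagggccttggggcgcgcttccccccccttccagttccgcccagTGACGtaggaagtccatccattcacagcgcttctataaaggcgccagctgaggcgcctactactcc
Jun (chr4:95052223-95052472, minus strand): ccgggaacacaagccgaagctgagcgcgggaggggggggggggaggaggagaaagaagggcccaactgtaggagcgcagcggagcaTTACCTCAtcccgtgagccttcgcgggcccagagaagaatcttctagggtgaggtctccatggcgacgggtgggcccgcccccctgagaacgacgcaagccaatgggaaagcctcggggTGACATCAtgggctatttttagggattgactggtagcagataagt
Junb (chr8:84978749-84978998, minus strand): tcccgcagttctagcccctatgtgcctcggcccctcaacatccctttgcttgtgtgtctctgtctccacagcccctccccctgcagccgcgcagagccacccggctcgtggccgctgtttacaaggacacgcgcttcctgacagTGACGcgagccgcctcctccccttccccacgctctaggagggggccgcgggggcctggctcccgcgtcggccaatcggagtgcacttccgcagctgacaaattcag
Atf3 (chr1:191183334-191183583, minus strand): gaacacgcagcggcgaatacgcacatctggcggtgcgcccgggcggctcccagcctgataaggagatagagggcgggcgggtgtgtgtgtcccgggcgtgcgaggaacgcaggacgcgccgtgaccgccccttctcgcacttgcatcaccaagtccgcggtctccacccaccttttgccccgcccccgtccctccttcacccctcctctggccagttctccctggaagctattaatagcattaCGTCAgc
Nr4a1 (chr15:101266596-101266845, plus strand): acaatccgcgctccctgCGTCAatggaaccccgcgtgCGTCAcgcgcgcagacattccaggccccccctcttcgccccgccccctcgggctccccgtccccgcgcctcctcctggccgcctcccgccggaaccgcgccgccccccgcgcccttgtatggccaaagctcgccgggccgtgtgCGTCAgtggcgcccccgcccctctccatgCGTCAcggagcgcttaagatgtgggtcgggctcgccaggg

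Nr4a1 held 4 CRE cores, at positions -233, -213, -69 and -40, where -1 is the last base before the start. Fos held 2, at -129 and -66, and Junb, Fosb and Atf3 held 1 each, at -106, -60 and -7.

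The 10 genes did not differ between the sexes past the test. The range of a gene over the 8 hearts lay between 1.14-fold, in Ier2, and 1.61-fold, in Nr4a1. By limma, 0 of 10 passed an adjusted p of 0.05 over all genes, where 0.0316% of all genes passed, and 0 of 10 had an unadjusted p under 0.05, where 6.96% of all genes did. The values of the 4 females and the 4 males overlapped for each of the 10, while over all genes 3.74% did not overlap. Exact two-sided permutation tests, whose smallest possible p is 0.0286 in this design, gave 0 of 10 with a p under 0.05. That followed from the overlap, since only groups without overlap can reach a p under 0.05 here. The smallest permutation p was 0.171, for Ier3. Of the 10 means, 2 were higher in females and 8 in males, with a median difference of -0.02, against -0.0006 over all genes. The bound of a 95% interval that lay farthest from 0, that of Nr4a1, was -0.44, so these arrays leave room for a difference of up to 1.36-fold in that gene. Among the 6 genes that varied least, the farthest bound was -0.18, or 1.14-fold.

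**Figure D1:**
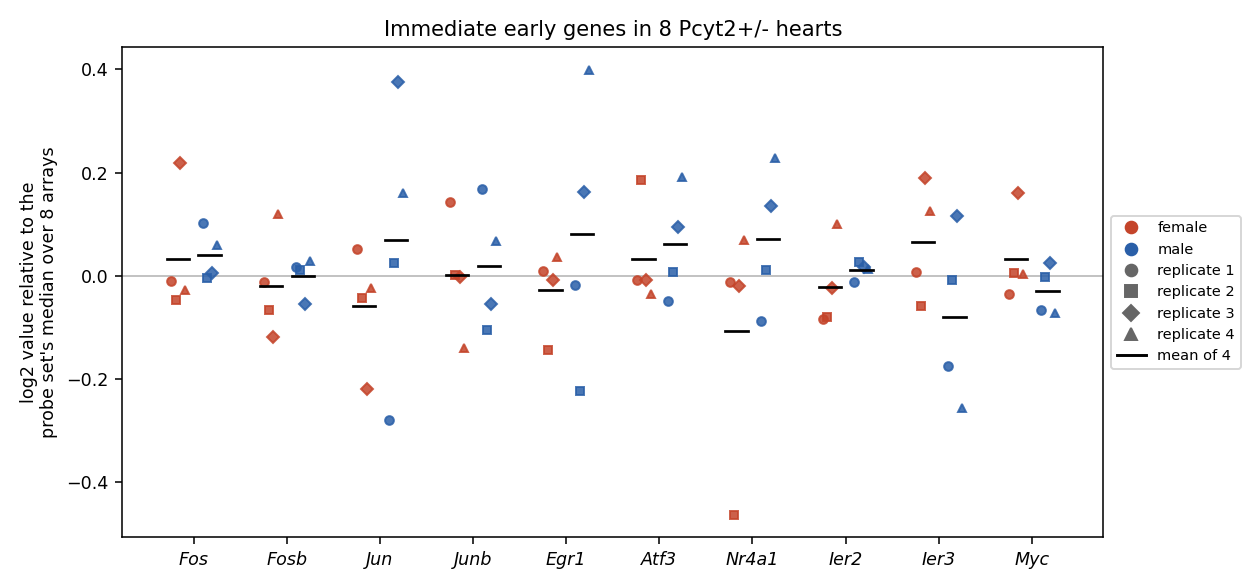
Log2 values of the 10 immediate early genes (vertical axis, 0 being the probe set's median over the 8 hearts) in 4 female hearts (left of each pair, red) and 4 male hearts (right, blue), with the marker shape giving the replicate number and a line the mean of 4. Female and male values overlap for each gene, and the values farthest from 0 are Nr4a1 in female 2 at -0.46 and Egr1 in male 4 at 0.40.

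Of the AP-1 genes, Jun varied most. Jun encodes the leucine zipper partner that Fos proteins need to bind DNA. Its log2 values were 0.05, -0.04, -0.22 and -0.02 in females 1 to 4, against -0.28, 0.02, 0.37 and 0.16 in males 1 to 4. The males held both the lowest and the highest heart, and the 4 females lay between them. The mean was -0.06 ± 0.12 in females and 0.07 ± 0.27 in males (SD, n = 4 each), a difference of -0.13 ± 0.12 (SE; limma, adjusted p = 0.91). Without male 1 the difference was -0.25 and without the 3 hearts highest in Myh4 it was -0.36, at unadjusted p of 0.0274 and 0.00646 but adjusted p of 0.709 and 0.501 (limma). Of the males, the latter fit kept only 3 and 4, the 2 hearts highest in Jun. Without male 3, the highest heart, the difference was -0.03, and without female 3, the lowest female, -0.08 (limma, adjusted p = 0.994 and 0.975).

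Fos, whose protein pairs with Jun proteins and whose message is the classic marker of recent stimulation, stayed within a 1.2-fold range over the 8 hearts. It stood at -0.01, -0.05, 0.22 and -0.03 in the females, against 0.10, -0.0049, 0.0049 and 0.06 in the males. Female 3 was the single high heart, and the means of 0.03 ± 0.12 in females and 0.04 ± 0.05 in males (SD, n = 4 each) differed by -0.0074 ± 0.06 (SE; limma, adjusted p = 0.992). Fosb, its close relative, ran between -0.12 and 0.12 in females and between -0.06 and 0.03 in males, a difference of -0.02 (limma, adjusted p = 0.979). Junb, a partner with weaker activating power than Jun, ran between -0.14 and 0.14 in females and between -0.10 and 0.17 in males, a difference of -0.02 (limma, adjusted p = 0.987).

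Among the other immediate early transcription factors, Egr1 and Nr4a1 varied nearly as much as Jun. Egr1 encodes a zinc finger factor that serum response factor raises within minutes. Its values were 0.0089, -0.14, -0.0089 and 0.04 in females 1 to 4, against -0.02, -0.22, 0.16 and 0.40 in males 1 to 4. Males 3 and 4 lay above each female and male 2 below each of them. The difference was -0.11 ± 0.12 (SE; limma, adjusted p = 0.927), or -0.32 once the 3 hearts highest in Myh4 were left out (limma, unadjusted p = 0.0113, adjusted p = 0.561). Of the males, that fit kept only 3 and 4. The difference over all hearts rested on male 4, since it was -0.0012 without that heart (limma, adjusted p = 0.999). It was -0.07 without female 2 and -0.21 without male 2 (limma, adjusted p = 0.987 and 0.675).

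Nr4a1, an orphan nuclear receptor gene known as Nur77, stood at -0.01, -0.46, -0.02 and 0.07 in the females, against -0.09, 0.01, 0.14 and 0.23 in the males. Female 2 was the lowest heart by a wide margin. The means of -0.11 ± 0.24 in females and 0.07 ± 0.14 in males (SD, n = 4 each) differed by -0.18 ± 0.12 (SE; limma, adjusted p = 0.82), and the sexes overlapped. The difference was -0.06 without female 2, -0.05 without the 2 hearts highest in Alb and -0.32 without the 3 highest in Myh4 (limma, adjusted p = 0.971, 0.977 and 0.743). Atf3, a stress-induced repressor of the ATF family, reached 0.19 in female 2 and 0.19 in male 4, with the other hearts between -0.05 and 0.10. Its difference was -0.03 (limma, adjusted p = 0.975). Female 2 was thus at once the lowest heart in Nr4a1 and among the 2 highest in Atf3.

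The small early response genes and Myc completed the set. Ier2, a nuclear protein gene, was the steadiest of the 10: it ran from -0.08 to 0.10 in females and from -0.01 to 0.03 in males, with a difference of -0.03 (limma, adjusted p = 0.952). Ier3, whose product bears on cell survival downstream of NF-κB and ERK, had the smallest p of the set. It stood at 0.0073, -0.06, 0.19 and 0.13 in females 1 to 4, against -0.17, -0.0073, 0.12 and -0.26 in males 1 to 4. Males 1 and 4 were the lowest hearts and females 3 and 4 the highest. The means of 0.07 ± 0.11 in females and -0.08 ± 0.17 in males (SD, n = 4 each) gave a difference of 0.15 ± 0.09 (SE; limma, unadjusted p = 0.123, adjusted p = 0.788). Without male 3 the difference was 0.21, with an unadjusted p of 0.0255 and an adjusted p of 0.773 (limma), and without male 4 it was 0.09, with an adjusted p of 0.915 (limma). Myc, the growth-promoting factor that pairs with Max, had a difference of 0.06 ± 0.05 (SE; limma, adjusted p = 0.868), with values of -0.04, 0.0062, 0.16 and 0.0029 in the females, against -0.07, -0.0029, 0.02 and -0.07 in the males. Female 3 was the only heart above 0.03, and without it the difference was 0.02 (limma, adjusted p = 0.976).

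**Figure D2:**
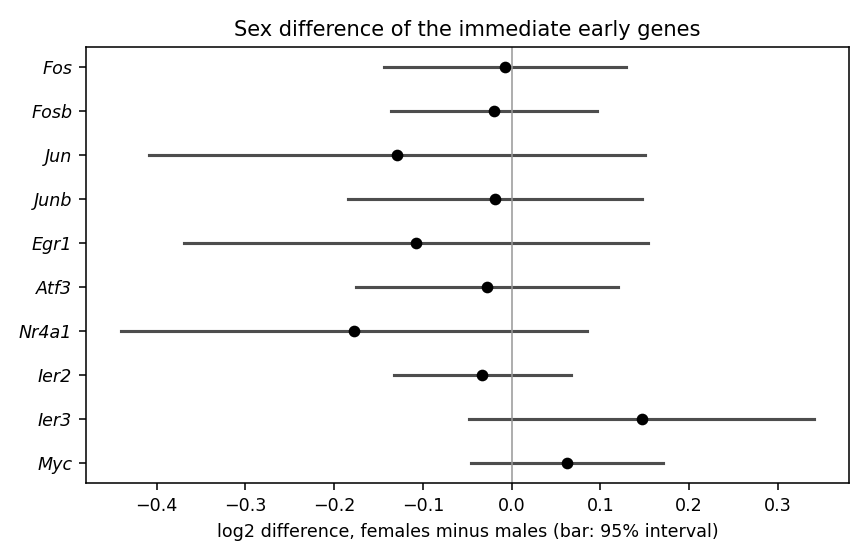
Difference between the sexes for the 10 immediate early genes (horizontal axis, log2, females minus males), with dots for the limma estimate from 4 hearts against 4 and bars for its 95% interval. All 10 intervals cross 0. That of Jun is the widest, from -0.41 to 0.15, and that of Nr4a1 reaches farthest from 0, to -0.44.

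Hearts of 1 sex differed from each other in 8 of the 10 genes more than they did in the median gene. The SD between hearts of 1 sex, pooled over the sexes, had a median of 0.11 on the log2 scale for the 10 genes, against 0.07 over all genes. Jun (0.21), Nr4a1 (0.20), Egr1 (0.20) and Ier3 (0.14) were among the most variable 10% of genes, at the percentiles 98.6, 98.1, 98.0 and 92.3. That is 4 of 10, or 40%, against 9.95% of all genes past the same bound. Junb was at the percentile 84.5, Atf3 at 76.0, Fos at 69.2 and Fosb at 53.6, and Myc at 45.8 and Ier2 at 37.6 lay below the median gene. Single hearts weighed on these ranks. Nr4a1 fell to the percentile 80.0 without female 2, Ier3 to 83.8 without male 3, Egr1 to 90.2 without male 4 and Jun to 92.1 without male 1. Fos fell to 17.6 without female 3. Of the 10 genes, 5 had the larger SD in females and 5 in males, and this was not tested. Centred values hold no brightness, and a dim probe set can show only a small SD whatever the gene does.

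**Figure D3:**
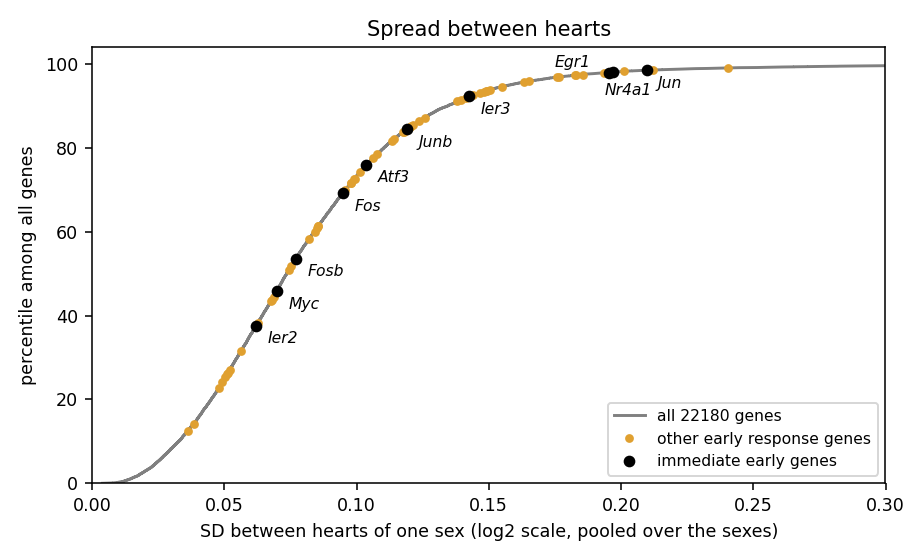
SD between hearts of 1 sex (horizontal axis, log2 scale) against its percentile among all genes (vertical axis), with the line for all genes, black dots for the 10 immediate early genes and orange dots for 61 other early response genes. Jun, Nr4a1, Egr1 and Ier3 lie above the percentile 90, and Ier2 lies lowest of the 10 at 37.6.

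The mean of the 10 genes was 0.0050, -0.07, 0.02 and 0.02 in females 1 to 4, against -0.04, -0.03, 0.08 and 0.08 in males 1 to 4. No heart was high in all of them. Males 3 and 4 had 8 of 10 genes above the median of 0, female 4 had 6, male 2 had 5, female 1 had 4, and females 2 and 3 and male 1 had 3 each. Male 4 held the highest Egr1, Nr4a1 and Atf3 and, in the same heart, the lowest Ier3 and Myc. Female 3 held the highest Fos, Ier3 and Myc, with Jun at -0.22. Male 3 held the highest Jun, and male 1 the lowest Jun with the highest Junb.

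Across the 8 hearts the 10 genes did not move as 1 block. Of the 45 pairs, 22 had a Pearson's r above 0 and 23 below, with a median of -0.018 and a range from -0.661 to 0.808. In exact two-sided permutation tests 0 of 45 pairs passed after Benjamini-Hochberg adjustment over the 45, by Pearson's r or by Spearman's rho, with 1 and 4 pairs at an unadjusted p under 0.05. Pairs among the related genes Fos, Fosb, Jun and Junb were mixed too: r was -0.451 for Fos and Fosb (exact permutation p = 0.269), -0.306 for Jun and Junb (p = 0.468) and -0.51 for Fos and Jun (p = 0.2). It was 0.306 for Fos and Junb, 0.049 for Fosb and Jun and -0.188 for Fosb and Junb. Without the 2 hearts farthest from the median of the first gene, these r became 0.112, 0.289 and 0.552 for the first 3 pairs. They became 0.328, -0.341 and 0.365 for the others.

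Ier3 and Myc had the highest r of the 45, at 0.808 (exact permutation p = 0.00861, adjusted p = 0.387; rho = 0.786, p = 0.0279, adjusted p = 0.516). Both were highest in female 3 and lowest in male 4. Within the sexes, with sex means removed, r was 0.751, and without the 2 hearts farthest from the median of Ier3 it was 0.768. Egr1 and Nr4a1 came next at 0.678 (exact permutation p = 0.0888, adjusted p = 0.891; rho = 0.762, p = 0.0368, adjusted p = 0.516), with 0.636 within the sexes and 0.916 without the 2 hearts farthest from the median of Egr1. The lowest r, -0.661, was that of Junb and Ier2 (exact permutation p = 0.07, adjusted p = 0.891; rho = -0.738, p = 0.0458, adjusted p = 0.516). It was -0.721 within the sexes, where the exact permutation p of 0.00174 is the smallest that permuting within sexes can give (adjusted p = 0.0781), and -0.657 without the 2 hearts farthest from the median of Junb.

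The next pairs from either end also failed the adjustment. Fosb and Ier2 had an r of 0.663 that rested on female 4, since it was 0.308 without that heart. Nr4a1 and Ier2 had 0.593, or 0.374 without female 2. Fos and Myc had 0.523, but -0.792 without female 3. Fosb and Myc had -0.629, or -0.246 without female 3, and Junb and Ier3 had -0.576, between -0.68 and -0.439 with any 1 heart left out.

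**Figure D4:**
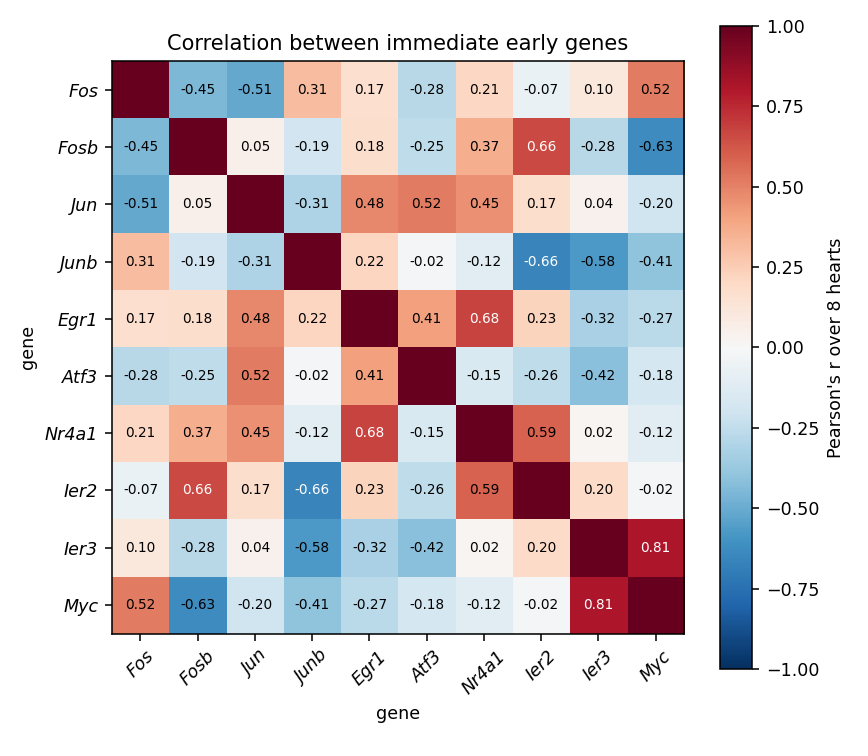
Pearson's r over 8 hearts for each of the 45 pairs of the 10 immediate early genes (both axes list the genes, red for r above 0 and blue for r below 0). Positive and negative pairs are mixed, with Ier3 and Myc highest at 0.81 and Junb and Ier2 lowest at -0.66.

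**Figure D5:**
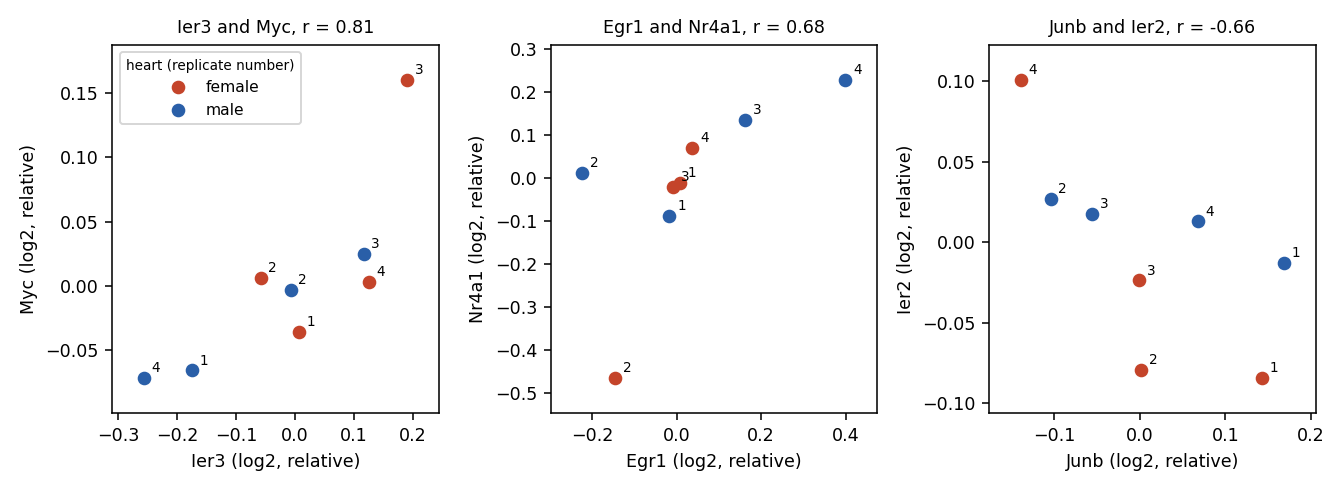
Log2 values of Ier3 against Myc, Egr1 against Nr4a1 and Junb against Ier2 (relative to each probe set's median), 1 point a heart, red for females and blue for males, with the replicate number beside it. Female 3 and male 4 stand at opposite ends in Ier3 and Myc, and female 2 and male 4 in Nr4a1.

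Other rapidly induced genes gave a similar picture. Of 61 measured genes of a wider early response list, 0 passed the adjusted threshold between the sexes (limma), 4 had an unadjusted p under 0.05, where 6.96% of all genes did, and 1 did not overlap between the sexes, where 3.74% of all genes did not. These shares of the list are no larger than those over all genes. Their means were higher in females for 35 and in males for 26, with a median difference of 0.0084. Arc, a neuronal activity gene, had a difference of -0.14 ± 0.04 (SE; limma, adjusted p = 0.539) and was the gene without overlap, at -0.06 ± 0.05 in females and 0.08 ± 0.05 in males (SD, n = 4 each). Csrnp1 had a difference of 0.12, and Ccn1 and Thbs1, secreted matricellular protein genes, had -0.27 and -0.23 (limma, adjusted p = 0.614, 0.633 and 0.666). Spry4 and Rhob, a signalling inhibitor gene and a small GTPase gene, followed with -0.13 and -0.13 (limma, adjusted p = 0.726 and 0.728). Of the 61 genes, 22, or 36.1%, were among the most variable 10%, led by Gadd45b, a growth arrest gene, at the percentile 99.1 and by Dusp1, a MAPK phosphatase gene, at 98.6.

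Each of the 10 genes was also set against each of these 61 genes across the 8 hearts, a comparison added after the values had been seen. In exact two-sided permutation tests 0 of 610 relations passed the adjustment, and 37, or 6.07%, had an unadjusted p under 0.05, 26 of them with an r above 0. The 5 with the smallest p are described. The smallest p was that of Ier3 and Ier5, another small early response gene (r = 0.922, exact permutation p = 0.000397, adjusted p = 0.242; rho = 0.857, p = 0.0107, adjusted p = 0.494), with an r of 0.91 within the sexes and 0.876 without the 2 hearts farthest from the median of Ier3. Jun and Gadd45g, a growth arrest gene, ran in opposite directions (r = -0.932, exact permutation p = 0.00144, adjusted p = 0.427; rho = -0.857, p = 0.0107, adjusted p = 0.494), at -0.938 within the sexes and -0.733 without the 2 hearts farthest from the median of Jun. Male 1, lowest in Jun, was at 0.09 in Gadd45g, and male 3, highest in Jun, was at -0.14. Nr4a1 ran with Sik1, a kinase gene that CREB raises (r = 0.844, exact permutation p = 0.00236, adjusted p = 0.427; rho = 0.786, p = 0.0279, adjusted p = 0.608), at 0.929 within the sexes but 0.626 without the 2 hearts farthest from the median of Nr4a1. Female 2 was the lowest heart in both, with Sik1 at -0.32. Ier3 and Klf6, a zinc finger gene, had an r of 0.898 (exact permutation p = 0.003, adjusted p = 0.427; rho = 0.881, p = 0.00724, adjusted p = 0.494), at 0.904 within the sexes and 0.928 without the 2 hearts farthest from the median of Ier3. Nr4a1 and Klf2, a zinc finger gene that blood flow raises in endothelium, had an r of 0.789 (exact permutation p = 0.0035, adjusted p = 0.427; rho = 0.833, p = 0.0154, adjusted p = 0.494), at 0.757 within the sexes and 0.84 without the 2 hearts farthest from the median of Nr4a1. Of the wider list, the 6 genes whose pattern was most like the mean of the 10, each scaled to an SD of 1, were Klf2 (r = 0.884 over 8 hearts), Sik1 (0.824), Spry4 (0.763), Dusp1 (0.744), Zfp36l1 (0.73) and Snai1 (0.723).

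Of the genes that act on immediate early promoters, 23 were measured, among them serum response factor, CREB and MAPK genes. None passed the adjusted threshold (limma), and 5 of 23 had an unadjusted p under 0.05, against 6.96% of all genes, with a median difference of -0.04. Elk4, a partner of serum response factor, had a difference of -0.11, and the kinase gene Rps6ka5 one of 0.17 (limma, adjusted p = 0.657 and 0.662). Heat shock genes, which also rise with stress at collection, had 0 of 12 members past the threshold and 1 at an unadjusted p under 0.05: the co-chaperone gene Bag3, with a difference of -0.22 (limma, adjusted p = 0.662). Hypoxia genes (13 measured) and genes of the integrated stress response (13 measured) had 0 past the threshold and 0 at an unadjusted p under 0.05 (limma). Among dimer partners, AP-1 relatives had 1 of 13 at an unadjusted p under 0.05, Maf with a difference of 0.11, and MYC relatives 1 of 12, Mxd1 with 0.17 (limma, adjusted p = 0.654 and 0.673), and both lists had 0 past the threshold. Of 14 measured MYC target genes, 0 passed and 0 had an unadjusted p under 0.05 (limma).

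The mean of the 10 genes in each heart, here not scaled, was also set beside the means of other lists, as a description over 8 arrays. Jun, Nr4a1 and Egr1 varied most and so weigh most in this mean. The wider early response list had an r of 0.654 with it, the genes that act on early promoters 0.744, and the integrated stress genes -0.571. The mean of the 10 fast skeletal muscle genes had an r of -0.635 with it (rho = -0.762, and r = -0.822 with sex means removed). That list ran from -0.24 to 0.32 in females and from -0.21 to 0.86 in males, with Myh4 highest. The 10 smooth muscle and pericyte markers had an r of 0.609 and ran from -0.07 to 0.04 in females and from -0.09 to 0.13 in males. The 10 fibroblast markers had an r of -0.473 and ran from -0.17 to 0.04 in females and from -0.06 to 0.18 in males. The 9 liver genes had an r of -0.558 and ran from -0.04 to 0.50 in females and from -0.06 to -0.02 in males. Endothelial (0.331), adipocyte (0.059), atrial (-0.266), cardiomyocyte (-0.258), macrophage (-0.25), lymphocyte (-0.009) and neutrophil markers (0.121) had an r nearer 0, and heat shock genes had -0.364. Some of these values depended on the measure. Endothelial markers had a rho of 0.762, as large as that of the skeletal list, and heat shock genes a rho of 0.119. Lymphocyte markers had an r of 0.534 with sex means removed. The part of other cells and tissues in the values of the immediate early genes was not tested. With the 3 hearts highest in Myh4 left out, or the 2 highest in Alb, 0 of the 10 genes passed between the sexes (limma). The first fit left out female 1 and males 1 and 2, and the second left out females 1 and 2. Of the males, the first kept only 3 and 4, the 2 hearts highest in Jun, Egr1 and Nr4a1. These small fits do not test the part of other tissues.

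Likeness to the mean of the 10, each scaled to an SD of 1, was ranked over the other genes, leaving out predicted and similar ones. The most alike were Sh3kbp1 (r = 0.979 over 8 hearts), an adaptor gene of receptor uptake, the tubulin gene Tubb5 (0.961), the phospholipase C gene Plcb3 (0.952), Adgrg2 (0.951), the matrix proteoglycan gene Prelp (0.944), Zfat (0.941), Osbpl1a (0.941) and Arhgef18 (0.939). The most opposite were Ncl (-0.975), which encodes nucleolin and is a MYC target, Herc4 (-0.973), Sec16b (-0.969) and Cndp1 (-0.964), a dipeptidase gene. Sh3kbp1 was highest in males 3 and 4, at 0.20 and 0.17, and lowest in female 2, at -0.18. Picked as the ends of so many genes over 8 arrays, these values carry no test.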

How the data were processed

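RNA of 8 hearts was labelled with biotin from 100 ng of total RNA and hybridised to Affymetrix arrays, per the labels' protocols. The authors deposited log2 values, 1 column an array. The log base was taken as 2, and how the arrays were background-corrected, normalized and summarized is not given in the sources used here. All 34351 probe sets in the deposited log2 table have a median of 0, so brightness and absolute levels are unknown, and the number of arrays limits the precision.

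Of the probe sets, 23521 had 1 gene symbol in the platform annotation. Averaging per symbol gave 22180 genes. Each of the 10 immediate early genes had 1 probe set. Differences were fitted by limma (version 3.58.1, R 4.3.3), with lmFit and eBayes and a single term for sex, and p-values were adjusted over all genes by Benjamini-Hochberg with a threshold of 0.05. Correlations were tested with exact permutations (40320 orders of 8 arrays, or 576 within the sexes) in Python 3.11.15. The code was tested on simulated data.

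The 10 genes and the lists were chosen with earlier results of these data known. Named were the 10 genes, up to 6 of the wider list by smallest p and 6 by likeness to the mean, members of other lists by smallest p, the 8 most and 4 least alike genes, and the 5 highest and 3 lowest pairs. Predicted, microRNA, snoRNA, olfactory and similar genes were left out of the ranking by likeness over all genes. Symbols that begin with C or D and a digit were left out too, among them named genes such as C1qa. The 5 wider-list relations with the smallest p and the related pairs were chosen after their values were seen. Alternatives were quantile normalization, median centring, single probe sets, robust eBayes, array weights, a replicate block, list covariates, autosomal genes only and each array left out. Those added after seeing the data were leaving out arrays high in Myh4 or Alb and an atrial covariate.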

Additional observations from a re-analysis of the deposited data

Results flagged for a closer look

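In 28 groups of 4 hearts checked for a lone value (each of the 10 genes and 4 list means, by sex), 3 had a heart whose gap to its nearest neighbour, as a share of the group's range, passed Dixon's 95% bound. Chance gives about 1 in 20 such groups. Female 3 stood alone in Fos at 0.22, with the next female at -0.01 and a gap of 0.863 of the range. Female 2 stood alone in Atf3 at 0.19, with the next at -0.0080, and in Nr4a1 at -0.46, with the next at -0.02. The gaps were 0.876 and 0.833 of the range. Without female 2 the sex difference of Nr4a1 was -0.06, against -0.18 with it, and it kept its sign with any other heart left out.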

How the results depend on the processing

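The count of 0 immediate early genes past the limma threshold held in all 20 alternative fits and with an adjusted threshold of 0.1. Exact permutation tests per gene also gave 0, which was already fixed by the overlap of the sexes in each gene. At an unadjusted p under 0.05, Jun and Egr1 came in without the 3 hearts highest in Myh4, Egr1 with fast skeletal muscle genes as a covariate, Jun without male 1 and Ier3 without male 3. Jun, Egr1, Nr4a1, Ier3 and Myc kept the sign of their difference in all 20 fits. Fos changed sign in 6, Junb in 3 and Fosb, Atf3 and Ier2 in 1 each. The fits by single probe set, with robust eBayes, with a replicate block or on autosomal genes cannot change these differences. The difference of Egr1, though of the same sign, was only -0.0012 without male 4. Over all genes 7 passed. Quantile normalization left 3, autosomal genes alone 0 (1453 at an unadjusted p under 0.05), and leaving out 1 heart left 4 to 7. Male 3 gave the 4. The cause was not tested, apart from the autosomal fit, which leaves out the sex-linked genes. Deviations of same-numbered hearts correlated weakly, at 0.137, 0.097, 0.006 and 0.091 for numbers 1 to 4. The closest male to females 1, 2 and 4 had the same number, and the closest to female 3 was male 1. The closest female to males 1 and 2 had the same number, and those to males 3 and 4 were females 1 and 2. Whether the numbers pair the hearts was not tested. With a replicate block 8 genes passed, none of the 10 among them. With the block removed from the values, r changed sign to -0.203 for Egr1 and Nr4a1 and to 0.121 for Fosb and Myc. It was 0.223 for Ier3 and Myc, 0.247 for Nr4a1 and Ier2, 0.81 for Fos and Myc, 0.943 for Fosb and Ier2, -0.925 for Junb and Ier2 and -0.988 for Junb and Ier3, with no test. This removal makes each male value the negative of that of the same-numbered female, so only 4 mirrored values remain. An extreme r comes easily from so few: Fosb and Junb, at -0.188 over 8 hearts, were at -0.99. For the 45 pairs, 0 passed in each of 13 alternatives, but some of these could hardly pass. Within the sexes, a pair at the smallest possible exact permutation p of 0.00174 still had an adjusted p of 0.0781. Leaving out 2 or 3 hearts also leaves few orders to permute. The median SD of the 10 genes ran from 0.10 to 0.12 with 1 heart left out, and 3 to 4 of them stayed in the most variable 10%. The arrays limit what could be seen: the median SE of the 10 differences was 0.07, against 0.05 over all genes.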
